A study of Mus musculus with 12 samples.

Results

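The genes described here are 10 genes that mark regulatory T cells (Treg): Foxp3, Il2ra, Ctla4, Ikzf2, Ikzf4, Lrrc32, Nrp1, Gpr83, Izumo1r and Capg. They were chosen by name, and all 10 were found among the 41457 genes counted in each library. Treg are CD4+ T cells that restrain other immune cells. The transcription factor Foxp3 defines the lineage and keeps much of its gene programme in place. Surface molecules of the same programme take up IL-2, occupy costimulatory ligands on dendritic cells and release active TGF-beta.

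RNA-Seq was done on splenic RFP+CD4+ Treg in 12 libraries, 3 for each of 4 groups. CD18wt mice carried the Foxp3Cre allele and intact CD18wt/wt, and CD18Foxp3 mice carried the Foxp3Cre allele with CD18fl/fl, so that exon 3 of Itgb2, the gene of the CD18 chain of the β2-integrins, was removed. Both genotypes were C57BL/6 and carried the Foxp3Cre allele and a Rosa26 RFP reporter. Cre was driven from the Foxp3 locus, and RFP therefore marked cells in which Foxp3 was or had been active. Sorted cells were kept overnight with 5 U/mL IL-2 (unstimulated) or with the same IL-2 plus 1 µg/mL anti-CD3 and 2 µg/mL anti-CD28 (stimulated). Ages were matched between genotypes but were not given for these mice. Xist had 0 to 4 reads and Ddx3y had 715 to 2029 reads in every library, so the X-linked Foxp3 was read from male cells throughout. The labels call the replicates biological without naming animals, and the paper describes the points of its transcript plots of these cultures as individual mice.

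The libraries held 10665174 to 19005482 exon reads. The shallowest library, CD18wt unstimulated replicate 3, also had the lowest share of intron reads, 3.32% of gene reads, against 3.66% to 5.99% in the other 11. Its chi-square per gene against its own replicates was 41.3 and 39.8, where those replicates differed from each other by 12. CD18Foxp3 stimulated replicate 1 stood apart from its replicates in the same way, with 58.9 and 64.3 against 11.9. Values without these libraries are given where they change a result. The stimulated CD18wt libraries also differed from each other, with a chi-square per gene of 22.7, 26.4 and 38.6. Itgb2 was at 428 ± 39.2 TPM (SD, n = 3) in unstimulated CD18wt Treg and at 240.1 ± 15.0 TPM (SD, n = 3) in unstimulated CD18Foxp3 Treg. After stimulation it was at 330 ± 1.16 TPM (SD, n = 3) and 172 ± 36.7 TPM (SD, n = 3). The log2 fold change between genotypes was −0.85 ± 0.09 (SE, adjusted p = 0.0041) without stimulation and −0.94 ± 0.17 (SE, adjusted p = 0.216) with it. The 5 T cell markers Cd3d, Cd3e, Cd3g, Cd4 and Cd5 summed to between 2067 and 3469 TPM in each library. Markers of B cells summed to between 22.6 and 30.8 TPM in unstimulated and between 8.79 and 19.9 TPM in stimulated libraries. Those of CD8 T and NK cells summed to at most 35.7 TPM, of plasma cells to at most 5.56 TPM, of dendritic cells to at most 4.95 TPM and of platelets to at most 1.47 TPM. Erythroid markers reached 58.1 TPM in CD18Foxp3 unstimulated replicate 2, against 1.83 to 11.8 TPM in the other unstimulated and 0.234 to 4.04 TPM in the stimulated libraries. The part of these cells in the results was not tested. With stimulation 4 of the 5 T cell markers fell in each genotype.

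Levels are given as TPM, reads per exon length scaled to the same sum in every library, which allows genes to be compared. Changes are log2 fold changes of exon reads on the TMM scale (edgeR quasi-likelihood test), and a gene was counted as changed at a fold change of at least 1.5 with an adjusted p of at most 0.01. All 10 genes passed the filter on low counts in every comparison. The choice of scale moved the stimulation comparisons. The median log2 fold change over all tested genes was 0.02 on the TMM scale and 0.36 on the log2(TPM + 1) scale in CD18wt Treg, and 0.01 and 0.31 in CD18Foxp3 Treg. Among genes that passed the test, 55.7% were higher after stimulation on the TMM scale and 80.7% on the TPM scale in CD18wt Treg, with 54.3% and 75.9% in CD18Foxp3 Treg. A TPM ratio between cultures therefore runs higher than the fold change given beside it. In bulk RNA, fewer cells that express a gene and less of its RNA per cell cannot be told apart.

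The bases before the transcription start are shown for 3 genes that changed with stimulation in at least 1 genotype and whose window of 250 bases holds no annotated exon: Il2ra and Ctla4, which were higher, and Nrp1, which was lower. The windows are from RefSeq on GRCm38.p6, on the plus strand at chr2:11642542-11642791, chr1:60908775-60909024 and chr8:128358823-128359072. The windows of Ctla4 and Nrp1 lie within the annotated gene spans, because longer transcripts start further upstream. Capitals mark matches on either strand to GGAAA, the core that NFAT factors bind, or to GGGNNTTCC, a form of the NF-kB site.

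Il2ra: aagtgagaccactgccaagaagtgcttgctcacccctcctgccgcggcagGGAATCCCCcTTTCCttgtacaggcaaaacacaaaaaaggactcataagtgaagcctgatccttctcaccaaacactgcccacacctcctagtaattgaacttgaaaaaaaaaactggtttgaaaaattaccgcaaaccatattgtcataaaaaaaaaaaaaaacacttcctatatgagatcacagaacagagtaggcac

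Ctla4: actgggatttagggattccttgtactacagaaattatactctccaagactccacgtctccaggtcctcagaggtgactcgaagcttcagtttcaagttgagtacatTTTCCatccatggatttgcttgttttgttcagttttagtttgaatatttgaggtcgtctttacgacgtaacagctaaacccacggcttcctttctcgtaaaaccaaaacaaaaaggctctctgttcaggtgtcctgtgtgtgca

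Nrp1: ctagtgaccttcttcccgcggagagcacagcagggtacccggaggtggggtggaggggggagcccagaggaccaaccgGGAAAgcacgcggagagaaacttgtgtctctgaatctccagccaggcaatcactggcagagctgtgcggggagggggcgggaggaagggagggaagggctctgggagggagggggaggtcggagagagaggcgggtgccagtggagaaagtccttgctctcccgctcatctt

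Each window held 1 match to GGAAA, which occurred in 55.57% of 32851 windows of the same length. The match lay at base −190 to −186 before the start in Il2ra, at −144 to −140 in Ctla4 and at −172 to −168 in Nrp1. Il2ra also held the NF-kB form at −200 to −192, which 4.98% of windows held. None of the 3 held the AP-1 site TGANTCA, the CRE site TGACGTCA, the STAT site TTCNNNGAA or the forkhead site TGTTTAC, which occurred in 6.75%, 1.55%, 7.02% and 3.17% of windows. A RefSeq window was found for 7 of the 10 genes, those named here and Foxp3, Gpr83, Izumo1r and Capg.

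**Figure D1:**
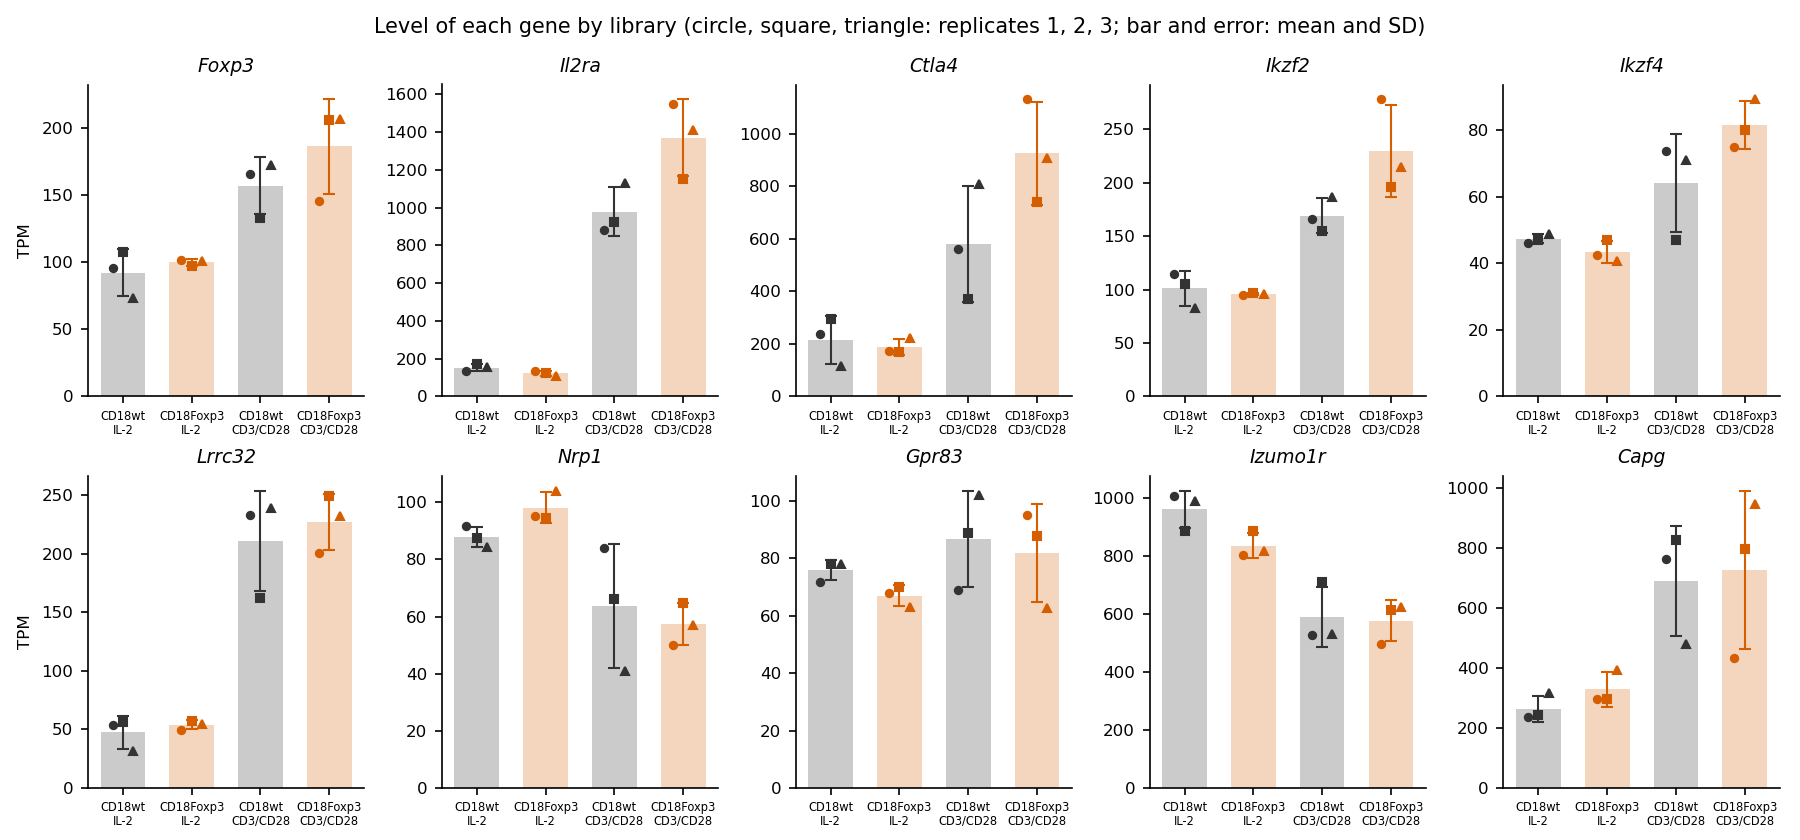
Level of each of the 10 genes in TPM (vertical axis, from 0) in the 4 groups, with the cultures named IL-2 (unstimulated) and CD3/CD28 (IL-2 with anti-CD3 and anti-CD28); points are the 3 libraries, bars the mean and error bars the SD. Il2ra lies between 107 and 170 TPM in the 6 unstimulated libraries and between 883 and 1550 TPM in the 6 stimulated ones, and Nrp1 and Izumo1r are the genes with lower means in both stimulated groups.

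In unstimulated Treg, the most abundant of the 10 transcripts was Izumo1r, which encodes folate receptor 4, at 961 ± 64.3 TPM (SD, n = 3) in CD18wt and 836 ± 43.9 TPM (SD, n = 3) in CD18Foxp3. Its lowest library lay above the highest library of Capg, the next gene, in both genotypes. Lrrc32 and Ikzf4 were the least abundant, and their ranges overlapped in CD18wt but not in CD18Foxp3. After stimulation Il2ra was first in both genotypes, and its libraries did not overlap those of the next gene. Nrp1 then had the lowest mean, at 63.6 ± 21.6 TPM (SD, n = 3) in CD18wt and 57.3 ± 7.47 TPM (SD, n = 3) in CD18Foxp3. Its libraries overlapped those of Ikzf4, the next gene, in CD18wt but not in CD18Foxp3. In the middle of the order several neighbours overlapped, among them Ikzf2 and Foxp3 in CD18wt Treg in both cultures.

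Stimulation changed 4 of the 10 genes in CD18wt Treg, where 33.6% of 11930 tested genes passed the test (18.7% higher, 14.9% lower). Il2ra, Lrrc32 and Capg were higher and Izumo1r was lower. In CD18Foxp3 Treg it changed 6 of the 10, where 38.6% of 12019 genes passed (20.9% higher, 17.6% lower). There Il2ra, Ctla4, Lrrc32 and Ikzf2 were higher, and Nrp1 and Izumo1r were lower. The median log2 fold change of the 10 genes was 0.36 in CD18wt and 0.66 in CD18Foxp3, beside 0.02 and 0.01 over all tested genes. Leaving out CD18wt unstimulated replicate 3 left 4 genes changed in CD18wt, and leaving out CD18Foxp3 stimulated replicate 1 gave 8 in CD18Foxp3.

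**Figure D2:**
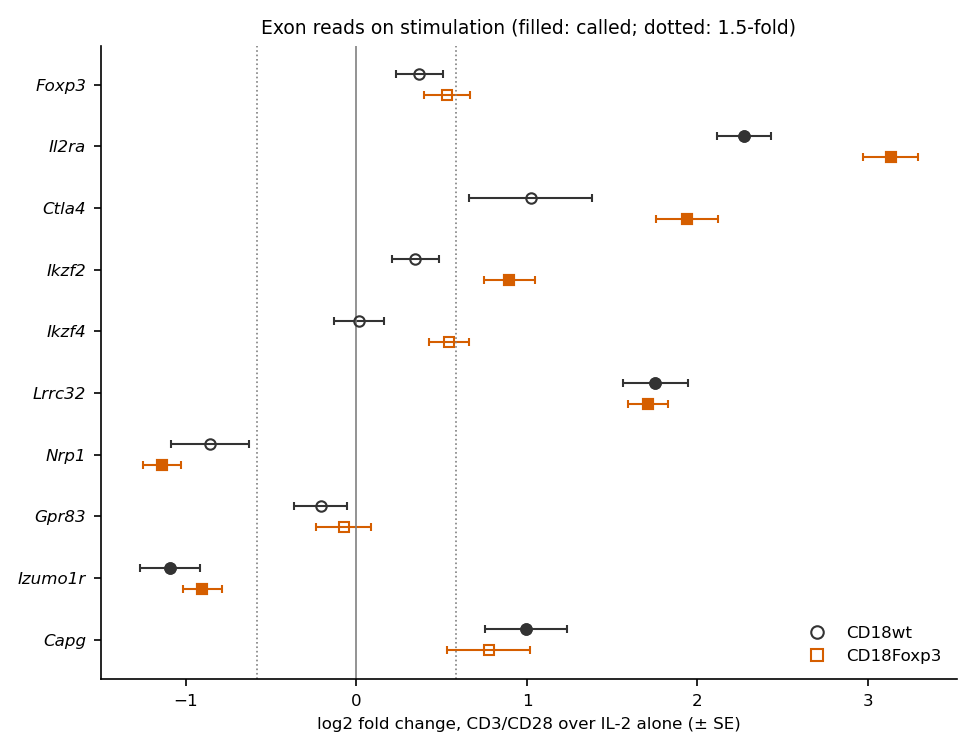
Log2 fold change of exon reads on stimulation (horizontal axis, TMM scale) for each gene in CD18wt (circles) and CD18Foxp3 Treg (squares), with error bars of 1 SE; filled symbols passed the test and dotted lines mark a 1.5-fold change. Il2ra lies farthest to the right in both genotypes, at 2.27 and 3.13, and Nrp1 and Izumo1r lie to the left of 0.

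Foxp3 (ENSMUSG00000039521, chromosome X, 7573644 to 7595245, plus strand, GRCm38) was present in every library. In unstimulated CD18wt Treg it stood at 95.5, 108 and 73.4 TPM, and in unstimulated CD18Foxp3 Treg at 102, 97.3 and 101 TPM. With stimulation it stood at 166, 133 and 173 TPM in CD18wt and at 146, 206 and 207 TPM in CD18Foxp3. Every stimulated library lay above every unstimulated library in TPM, and the lowest value was that of the shallow library, CD18wt unstimulated replicate 3. On the TMM scale the log2 fold change was 0.37 ± 0.14 (SE, adjusted p = 0.042) in CD18wt and 0.53 ± 0.14 (SE, adjusted p = 0.0084) in CD18Foxp3, a 1.29-fold and a 1.44-fold difference below the 1.5-fold threshold. Foxp3 did pass the test in both genotypes with limma on log2(TPM + 1), with differences of 0.77 and 0.87, and in CD18Foxp3 without stimulated replicate 1 (0.65, adjusted p = 5.6e-06). Foxp3 lies within the span of Gm36995 and overlaps Flicr, Ppp1r3f and Ccdc22 in the annotation, and 93.9% of its exon reads were placed uniquely. Flicr, a long noncoding RNA known to restrain Foxp3, held 71 to 246 reads per library, with log2 fold changes on stimulation of −0.51 ± 0.27 (SE, adjusted p = 0.138) in CD18wt and −0.37 ± 0.24 (SE, adjusted p = 0.211) in CD18Foxp3.

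Il2ra (ENSMUSG00000026770, chromosome 2, 11642807 to 11693193, plus strand) encodes CD25, the α-chain of the high-affinity IL-2 receptor. It stood at 133, 170 and 156 TPM in unstimulated CD18wt Treg and at 133, 124 and 107 TPM in unstimulated CD18Foxp3 Treg. After stimulation it stood at 883, 926 and 1131 TPM in CD18wt and at 1550, 1151 and 1414 TPM in CD18Foxp3. The cultures were far apart, and the stimulated CD18Foxp3 libraries lay above all stimulated CD18wt libraries, the nearest by 1151 against 1131 TPM. Il2ra rose by a log2 fold change of 2.27 ± 0.16 (SE, adjusted p = 3.8e-07) in CD18wt and of 3.13 ± 0.16 (SE, adjusted p = 1.8e-06) in CD18Foxp3. Both calls were kept under each alternative setting and with each library left out. The other parts of the receptor did not rise with it. Il2rb, the β-chain, had log2 fold changes of −0.36 and −0.01 and passed the test in neither genotype, and Il2rg, the common γ-chain, fell by 0.71 and 0.61.

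Ctla4 (ENSMUSG00000026011, chromosome 1, 60887000 to 60915832, plus strand) encodes the receptor that competes with CD28 for CD80 and CD86. It stood at 236, 295 and 115 TPM in unstimulated CD18wt Treg and at 172, 170 and 224 TPM in unstimulated CD18Foxp3 Treg. With stimulation it stood at 560, 370 and 810 TPM in CD18wt and at 1131, 739 and 906 TPM in CD18Foxp3. The cultures did not overlap in either genotype, but the CD18wt libraries were spread widely within both cultures. Ctla4 rose by 1.94 ± 0.18 (SE, adjusted p = 2.9e-05) on the log2 scale in CD18Foxp3. In CD18wt the log2 fold change was 1.02 ± 0.36 (SE, adjusted p = 0.053), and 0.74 ± 0.25 (SE, adjusted p = 0.040) without unstimulated replicate 3.

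Ikzf2 and Ikzf4 encode Helios and Eos, zinc finger factors of the Ikaros family that act with Foxp3. Ikzf2 (ENSMUSG00000025997, chromosome 1, 69531214 to 69687245, minus strand) stood at 115, 105 and 82.7 TPM in unstimulated CD18wt and at 95.1, 97.1 and 96.2 TPM in unstimulated CD18Foxp3 Treg. Stimulated, it stood at 166, 155 and 187 TPM in CD18wt and at 278, 196 and 215 TPM in CD18Foxp3. All stimulated libraries lay above all unstimulated ones, with those of CD18Foxp3 highest. Ikzf2 rose by 0.90 ± 0.15 (SE, adjusted p = 0.00076) on the log2 scale in CD18Foxp3, while the value in CD18wt was 0.35 ± 0.14 (SE, adjusted p = 0.055). With limma on log2(TPM + 1) Ikzf2 passed in CD18wt as well, with a difference of 0.75 (adjusted p = 0.0015). Ikzf4 (ENSMUSG00000002578, chromosome 10, 128630843 to 128645991, minus strand) stood at 46.2, 47.0 and 48.9 TPM in unstimulated CD18wt and at 73.8, 47.1 and 71.1 TPM in stimulated CD18wt Treg, so that the second stimulated library lay among the unstimulated ones. In CD18Foxp3 it stood at 42.6, 46.9 and 40.6 TPM without and at 75.0, 79.9 and 89.2 TPM with stimulation, with no overlap. Its log2 fold change was 0.02 ± 0.15 (SE, adjusted p = 0.936) in CD18wt, where the sign turned with upper-quartile normalization, and 0.54 ± 0.12 (SE, adjusted p = 0.0034) in CD18Foxp3, a 1.46-fold difference under the fold threshold, which it passed on the log2(TPM + 1) scale with 0.89.

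Lrrc32 (ENSMUSG00000090958, chromosome 7, 98489283 to 98502181, plus strand) encodes GARP, which holds latent TGF-beta on the Treg surface. It stood at 54.1, 56.6 and 31.4 TPM in unstimulated CD18wt and at 49.5, 57.3 and 54.9 TPM in unstimulated CD18Foxp3 Treg. After stimulation, levels were 233, 162 and 239 TPM in CD18wt and 201, 249 and 232 TPM in CD18Foxp3. The cultures were well apart and the genotypes overlapped in each. Lrrc32 rose by 1.75 ± 0.19 (SE, adjusted p = 1.3e-05) on the log2 scale in CD18wt and by 1.71 ± 0.11 (SE, adjusted p = 5.1e-06) in CD18Foxp3. Without CD18wt unstimulated replicate 3, which held the lowest value, the rise in CD18wt was 1.56 ± 0.16 (SE, adjusted p = 1e-05).

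Nrp1 (ENSMUSG00000025810, chromosome 8, 128358604 to 128503363, plus strand) encodes neuropilin-1, a semaphorin receptor frequent on Treg of thymic origin. It stood at 91.6, 87.6 and 84.4 TPM in unstimulated CD18wt and at 95.3, 94.6 and 104 TPM in unstimulated CD18Foxp3 Treg. With stimulation it stood at 83.9, 66.2 and 40.9 TPM in CD18wt and at 50.0, 64.9 and 57.1 TPM in CD18Foxp3. The cultures did not overlap, although the highest stimulated CD18wt library nearly reached the lowest unstimulated one. Nrp1 fell by 1.14 on the log2 scale in CD18Foxp3 (SE 0.11, adjusted p = 3.5e-05). In CD18wt the log2 fold change was −0.86 ± 0.23 (SE, adjusted p = 0.0103), just beyond the threshold, which it met with DESeq2 (adjusted p = 0.00013) and with upper-quartile normalization. Leaving out stimulated replicate 1 or 3 also brought it past the threshold (adjusted p = 0.0042 and 0.0031). With any other CD18wt library left out it did not pass (adjusted p up to 0.043). On the log2(TPM + 1) scale the difference in CD18wt was −0.52, under the 1.5-fold threshold.

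Izumo1r (ENSMUSG00000031933, chromosome 9, 14885814 to 14903949, minus strand) lies beside Gpr83 (ENSMUSG00000031932, chromosome 9, 14860210 to 14870789, plus strand), which encodes a G protein-coupled receptor. Izumo1r stood at 1006, 887 and 989 TPM in unstimulated CD18wt and at 804, 886 and 819 TPM in unstimulated CD18Foxp3 Treg. With stimulation it stood at 529, 710 and 531 TPM in CD18wt and at 495, 613 and 623 TPM in CD18Foxp3. Each stimulated library was lower than each unstimulated one. Izumo1r fell by 1.09 on the log2 scale in CD18wt (SE 0.18, adjusted p = 0.00023) and by 0.90 in CD18Foxp3 (SE 0.11, adjusted p = 0.00015). On the TPM scale the difference in CD18Foxp3 was −0.54, under the 1.5-fold threshold. Gpr83 ranged from 62.7 to 102 TPM over all 12 libraries. The cultures overlapped in each genotype, while the 3 unstimulated CD18Foxp3 libraries lay below the 3 unstimulated CD18wt libraries. Its log2 fold changes were −0.21 ± 0.16 (SE, adjusted p = 0.289) in CD18wt and −0.07 ± 0.16 (SE, adjusted p = 0.716) in CD18Foxp3 on the TMM scale, and 0.17 and 0.26 on the log2(TPM + 1) scale.

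Capg (ENSMUSG00000056737, chromosome 6, 72544391 to 72562983, plus strand) encodes an actin-capping protein of the gelsolin family that macrophages also express. It stood at 235, 242 and 315 TPM in unstimulated CD18wt and at 295, 296 and 395 TPM in unstimulated CD18Foxp3 Treg. After stimulation, levels were 763, 828 and 481 TPM in CD18wt and 434, 798 and 948 TPM in CD18Foxp3. The cultures did not overlap, but 1 stimulated library of each genotype lay far below the other 2. Capg rose by 0.99 ± 0.24 (SE, adjusted p = 0.0065) on the log2 scale in CD18wt, a call that was lost when any of 4 of the 6 libraries was left out, with adjusted p up to 0.030. In CD18Foxp3 the log2 fold change was 0.78 ± 0.24 (SE, adjusted p = 0.022), and 1.02 ± 0.14 (SE, adjusted p = 0.00042) without stimulated replicate 1. Capg also passed there with DESeq2 (adjusted p = 0.0030), without a filter, with a replicate block (adjusted p = 0.0026) and at an adjusted p of 0.05. The 7 markers of monocytes, macrophages and neutrophils summed to between 2.66 and 15.8 TPM in unstimulated and between 0.443 and 1.83 TPM in stimulated libraries. Lyz2 made up most of the unstimulated sums in CD18wt, with 4.06 to 15.6 TPM, and had at most 1.58 TPM in the stimulated libraries. Cd14 went the other way, with 0 to 0.221 TPM in unstimulated and 0.123 to 0.869 TPM in stimulated libraries, and Adgre1 had reads in 0 unstimulated and 3 stimulated libraries. The part of such cells in the Capg result was not tested.

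The genotypes were compared within each culture to ask whether Treg without CD18 kept these transcripts. Between unstimulated CD18wt and CD18Foxp3 Treg 0 of the 10 genes passed the test, where 0.135% of 11829 genes did (0.0507% higher, 0.0845% lower). At an unadjusted p under 0.05, 3 of the 10 differed, with 9.59% of all genes doing so. They were Il2ra, with a log2 fold change of −0.36 ± 0.12 (SE, adjusted p = 0.309) in CD18Foxp3 against CD18wt, Izumo1r with −0.23 ± 0.10 (SE, adjusted p = 0.491) and Gpr83 with −0.20 ± 0.09 (SE, adjusted p = 0.504). The value for Foxp3 was 0.10 ± 0.11 (SE, adjusted p = 0.837), and −0.01 ± 0.08 (SE, adjusted p = 0.963) without CD18wt unstimulated replicate 3. Without that library 0 of the 10 genes passed as well. The exact permutation test of the TPM cannot fall below p = 0.1 with 3 libraries against 3.

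In stimulated Treg 0 of the 10 genes passed the test between genotypes, where 0% of 11930 genes did. Itgb2, the gene targeted by the deletion, did not pass there either (−0.94 ± 0.17, SE, adjusted p = 0.216). The count of 0 therefore does not show that stimulated Treg without CD18 kept these transcripts. At an unadjusted p under 0.05, 4 of the 10 differed, with 4.89% of all genes doing so, and all 4 were higher in CD18Foxp3. Ctla4 had the largest difference, 0.71 ± 0.24 (SE, adjusted p = 0.856) on the log2 scale, and it passed the test only in the fit without a filter on low counts (adjusted p = 0.0097). Il2ra had 0.50 ± 0.16 (SE, adjusted p = 0.813), Ikzf2 0.46 ± 0.17 (SE, adjusted p = 0.910) and Ikzf4 0.37 ± 0.17 (SE, adjusted p = 0.998). Without CD18Foxp3 stimulated replicate 1, which held the highest Il2ra, Ctla4 and Ikzf2 levels, these differences were 0.52 for Ctla4, 0.39 for Il2ra, 0.28 for Ikzf2 and 0.41 for Ikzf4. Foxp3 differed by 0.26 ± 0.16 (SE, adjusted p = 0.998), and Lrrc32, Nrp1, Gpr83, Izumo1r and Capg by between −0.15 and 0.13.

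**Figure D3:**
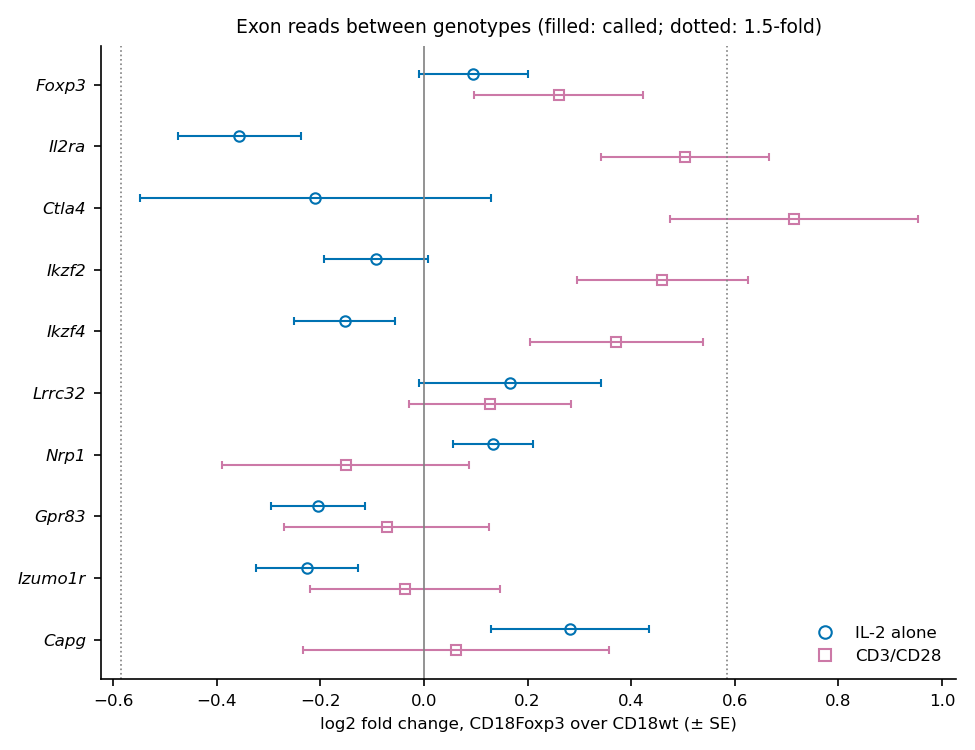
Log2 fold change of exon reads between genotypes (horizontal axis, CD18Foxp3 over CD18wt, TMM scale) for each gene without (circles) and with stimulation (squares), with error bars of 1 SE; dotted lines mark a 1.5-fold difference and open symbols did not pass the test. All symbols are open, and Il2ra lies at −0.36 in unstimulated and at 0.50 in stimulated Treg.

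Whether stimulation acted differently in the genotypes was tested by the interaction over all 12 libraries, in which 0 of the 10 genes and 0% of 12636 genes passed. At an unadjusted p under 0.05, 3 of the 10 differed, with 3.84% of all genes doing so: Il2ra, Ikzf2 and Ikzf4. The rise of Il2ra was larger in CD18Foxp3 by 0.85 ± 0.22 on the log2 scale (SE, adjusted p = 0.847). The difference was 0.55 ± 0.20 (SE, adjusted p = 0.987) for Ikzf2 and 0.52 ± 0.20 (SE, adjusted p = 0.987) for Ikzf4. For Ctla4 it was 0.91 ± 0.42 (SE, adjusted p = 0.987), with the largest error of the 10 genes. Changes called in CD18Foxp3 but not in CD18wt are therefore not shown to differ between genotypes. The stimulation comparisons share their unstimulated and stimulated libraries with the genotype comparisons.

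The deposited tables also count reads in introns, which unspliced RNA yields, and these were tested separately for the response to stimulation. In CD18wt Treg 4 of the 10 genes passed the test on intron reads, where 7.8% of 9492 genes did (2.71% higher, 5.09% lower), and in CD18Foxp3 Treg 7 of the 10, where 30.4% of 10260 genes did (15% higher, 15.4% lower). Il2ra and Capg rose in both genotypes, and Nrp1 and Ikzf2 fell in both. In CD18Foxp3 Foxp3 also rose, and Ctla4 and Izumo1r fell. With 1 library left out, 2 to 5 of the genes passed in CD18wt and 7 in CD18Foxp3, and the call of Nrp1 in CD18wt was lost when any of the 3 stimulated libraries was left out (adjusted p up to 0.028). That of Capg in CD18wt was lost without stimulated replicate 2 (adjusted p = 0.011). With the replicate number as a block, Capg kept its call in CD18wt, and Il2ra, Ikzf2 and Nrp1 lost theirs (adjusted p = 0.013, 0.018 and 0.025). Exon and intron reads moved the same way in both genotypes for Il2ra, Nrp1, Izumo1r, Capg, Foxp3 and Lrrc32, though not every change passed the test. Gpr83 had slightly fewer exon reads on the TMM scale and more intron reads in both genotypes. Its intron log2 fold changes were 1.27 ± 0.44 (SE, adjusted p = 0.051) in CD18wt and 0.59 ± 0.28 (SE, adjusted p = 0.083) in CD18Foxp3, and neither passed. For Il2ra the intron reads rose by 1.80 ± 0.31 (SE, adjusted p = 0.00085) in CD18wt and by 2.51 ± 0.16 (SE, adjusted p = 8.3e-20) in CD18Foxp3 on the log2 scale.

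**Figure D4:**
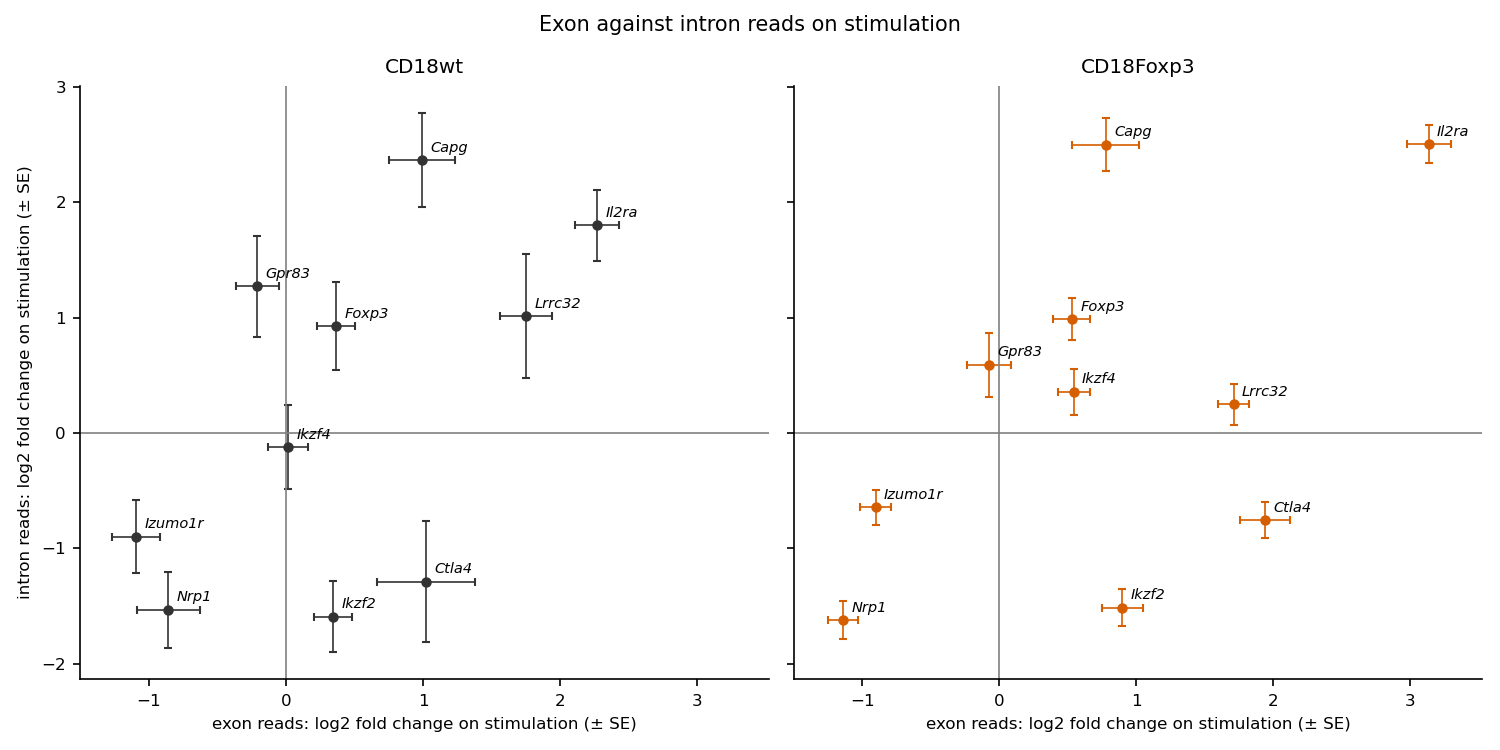
Log2 fold change on stimulation of exon reads (horizontal axis) against that of intron reads (vertical axis) for each gene in CD18wt and CD18Foxp3 Treg, with error bars of 1 SE. Ctla4 and Ikzf2 lie at the lower right of both plots, with more exon and fewer intron reads, and Capg lies at 2.37 and 2.50 on the intron axis.

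Ikzf2 and Ctla4 had fewer intron reads in the culture in which their exon reads were higher. Intron reads of Ikzf2 fell by 1.59 in CD18wt (SE 0.31, adjusted p = 0.0021, and 0.027 and 0.020 without stimulated replicate 1 or 3) and by 1.51 in CD18Foxp3 (SE 0.16, adjusted p = 1.7e-11). Introns held 10.5%, 10.5% and 8.3% of Ikzf2 reads in unstimulated CD18wt and between 10.4% and 12.9% in the unstimulated CD18Foxp3 libraries. In the stimulated libraries they held 2.9% to 3.7%, with no overlap between cultures. Intron reads of Ctla4 fell by 0.76 in CD18Foxp3 (SE 0.15, adjusted p = 6.4e-05). In CD18wt their log2 fold change was −1.29 ± 0.53 (SE, adjusted p = 0.109), and −1.76 ± 0.34 (SE, adjusted p = 0.00053) without unstimulated replicate 3. Introns held 46.3%, 38.4% and 15.2% of Ctla4 reads in unstimulated CD18wt and 37.6%, 40.2% and 29.0% in unstimulated CD18Foxp3 libraries, against 9.2% to 16.7% in the stimulated ones. The 1 overlap between cultures was that of the shallow library. Gm29114, Gm29112 and Gm28112 overlap Ikzf2, the kit did not mark strand, and 92.7% of the Ikzf2 intron reads were counted as unique to it.

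**Figure D5:**
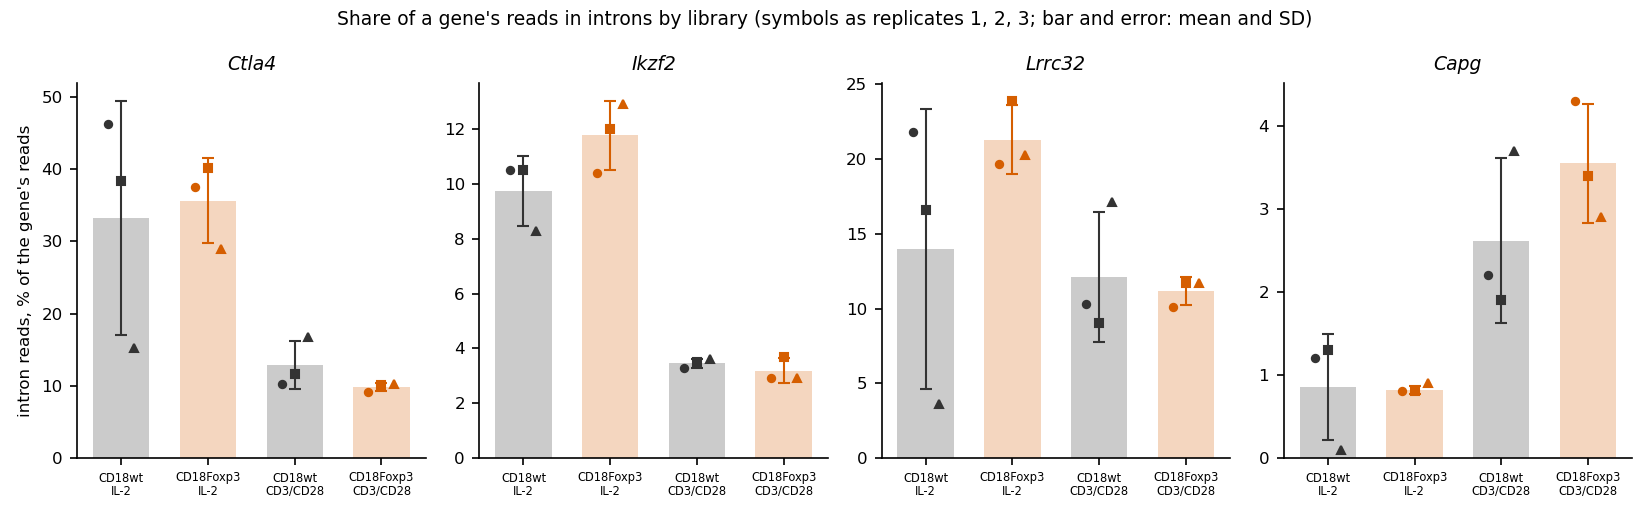
Share of the reads of Ctla4, Ikzf2, Lrrc32 and Capg that fell in introns, in % (vertical axis, from 0), in the 4 groups; points are the 3 libraries, bars the mean and error bars the SD. The share is lower in all stimulated libraries for Ikzf2 and higher in all stimulated libraries for Capg, and CD18wt unstimulated replicate 3 (triangle) has the lowest share of its group in each plot.

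Capg had more intron reads in the stimulated culture. They rose by 2.37 ± 0.41 (SE, adjusted p = 0.0009) on the log2 scale in CD18wt and by 2.50 ± 0.23 (SE, adjusted p = 2.3e-13) in CD18Foxp3, from counts of 4 to 55 per unstimulated library to 170 to 391 per stimulated library. Lrrc32, whose exon reads rose in both genotypes, had intron log2 fold changes of 1.01 ± 0.54 (SE, adjusted p = 0.222) and 0.25 ± 0.18 (SE, adjusted p = 0.27). Intron reads of Foxp3 had log2 fold changes of 0.93 ± 0.38 (SE, adjusted p = 0.099) in CD18wt and 0.99 ± 0.18 (SE, adjusted p = 8.9e-06) in CD18Foxp3. Because Gm36995 spans the locus, 0% of these reads were counted as unique to Foxp3.

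The counts of the following gene lists stand beside 18.7% of all tested genes higher and 14.9% lower in CD18wt, and 20.9% higher and 17.6% lower in CD18Foxp3, and were not tested against these shares. Genes that act on the Foxp3 locus moved in both directions with stimulation, 4 higher and 4 lower of 17 in CD18wt and 5 and 5 in CD18Foxp3, where 33.6% and 38.6% of all genes passed. The median log2 fold change of the list was −0.34 and −0.36. The 4 with the largest changes in both genotypes were Nr4a3, a nuclear receptor induced by T cell receptor signals (2.88 ± 0.17 and 3.05 ± 0.17, SE), Satb1, a chromatin organiser (−2.08 ± 0.30 and −2.21 ± 0.17, SE), Rel, an NF-kB subunit (1.65 ± 0.14 and 1.98 ± 0.21, SE), and Ets1 (−1.49 ± 0.15 and −1.46 ± 0.09, SE). Of 7 DNA methylation enzymes 5 rose and 1 fell in each genotype (all genes: 18.7% and 20.9% higher), with medians of 1.14 and 1.43. Uhrf1, which guides maintenance methylation, rose by 3.59 ± 0.31 and 3.46 ± 0.24 (SE). Dnmt1 rose by 1.43 ± 0.16 and 1.46 ± 0.16 (SE). Tet1, which oxidises methylcytosine, fell in both genotypes (adjusted p = 0.0055 and 0.0064). Tet2 and Tet3 went the other way and rose in both. In CD18Foxp3 they rose by 1.46 ± 0.19 (SE, adjusted p = 0.00016) and 0.89 ± 0.14 (SE, adjusted p = 0.00051). All these changes passed the test in both genotypes.

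Of 14 partners of the FOXP3 protein, 5 rose and 4 fell in CD18wt and 4 and 4 in CD18Foxp3, with medians of 0.20 and 0.25. Irf4, which Treg need for effector functions, rose by 3.67 ± 0.19 and 3.94 ± 0.19 (SE), and Ezh2, a histone methyltransferase, by 2.19 ± 0.14 and 2.65 ± 0.16 (SE). Of the 6 other genes of IL-2 receptor signalling, 1 rose and 3 fell in CD18wt, and 1 rose and 4 fell in CD18Foxp3. The kinase gene Jak1 fell by 1.21 and 1.22 (SE 0.15 and 0.10), and the transcription factor gene Stat5a rose by 0.65 ± 0.14 and 0.71 ± 0.12 (SE). The Ikaros relatives Ikzf1 and Ikzf3 fell in both genotypes, by 0.67 and 0.87 and by 1.05 and 1.00 on the log2 scale, while Ikzf5 did not pass the test.

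Among 5 genes of TGF-beta activation, 3 rose and 0 fell in CD18wt, and 4 rose and 1 fell in CD18Foxp3 (all genes: 18.7% and 20.9% higher, 14.9% and 17.6% lower). Furin, the protease that cleaves the TGF-beta precursor, rose by 1.65 ± 0.16 and 2.10 ± 0.29 (SE), Itgav, an integrin α-chain, by 1.48 ± 0.13 and 2.06 ± 0.15 (SE), and Tgfb1 by 0.80 ± 0.18 and 0.79 ± 0.15 (SE). Of 6 relatives, ligands and trafficking genes of CTLA-4, 1 rose and 1 fell in CD18wt, and 2 rose and 1 fell in CD18Foxp3. Icos, a costimulatory receptor, rose by 0.63 ± 0.14 and 1.46 ± 0.21 (SE), and Cd86, a ligand, fell by 1.74 and 1.67 (SE 0.20 and 0.26). Of the neuropilin relatives and partners 3 of 5 could be tested, of which Plxna1 rose by 1.11 ± 0.17 and 1.30 ± 0.15 (SE) and Sema4a fell, with log2 fold changes of −3.37 and −3.06 (SE 0.28 and 0.18). Of 4 tested gelsolin relatives of Capg, 1 fell in CD18wt, Gsn (by 1.16, SE 0.23), which was named after its value was seen, and 0 passed in CD18Foxp3, and neither folate receptor relative of Izumo1r could be tested.

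Among 11 other genes of the Treg signature, 5 rose and 3 fell in CD18wt, and 5 rose and 1 fell in CD18Foxp3, with medians of 0.04 and 0.02. Socs2, an inhibitor of cytokine signalling, rose by 2.62 ± 0.17 and 2.35 ± 0.17 (SE), and Tnfrsf4, which encodes OX40, by 1.89 ± 0.14 and 2.27 ± 0.13 (SE). Of 8 genes that Treg normally keep low, 1 rose and 5 fell in CD18wt, and 1 rose and 6 fell in CD18Foxp3, with medians of −1.64 and −1.95. Il7r, the IL-7 receptor chain, fell by 2.98 in each (SE 0.39 and 0.16). The 1 gene that rose was Il2, which had 4, 0 and 3 reads in unstimulated CD18wt and 2, 0 and 0 in unstimulated CD18Foxp3 libraries. With stimulation it had 623, 442 and 242 reads in CD18wt and 439, 298 and 94 reads in CD18Foxp3. Satb1, Stat5a, Stat5b, Runx1, Ikzf1 and Ikzf3 each stand in 2 of these lists. None of the genes of the lists passed the test between genotypes in either culture or in the interaction.

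Likeness of pattern was measured as the root mean square difference between centred log2 CPM over the 12 libraries, across 12636 genes. The 5 genes nearest to Foxp3 were Camsap1 (0.119), Hjurp (0.126), 2010111I01Rik (0.133), Atf6 (0.134) and Itprid2 (0.136). The nearest of the 10 genes was Ikzf4, at 0.225. The nearest gene was Rbpj for Il2ra (0.197), Elovl6 for Ctla4 (0.261), Orc3 for Ikzf2 (0.109), Itih5 for Ikzf4 (0.114) and Cish for Lrrc32 (0.161). It was Nipal3 for Nrp1 (0.0988), Immp2l for Gpr83 (0.0987), Saysd1 for Izumo1r (0.122) and Slc39a4 for Capg (0.168). Ctla4 was thus the least closely matched by its nearest gene.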

How the data were processed

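Polyadenylated RNA of overnight cultures of sorted splenic Treg was sequenced as single reads from libraries that do not mark strand. The authors mapped the reads to GRCm38 with CLC Genomics Workbench and deposited, for each of the 12 libraries, whole-number read counts per gene (exon, intron, unique and total) and TPM, which recomputation from exon counts and exon length matched. The authors' deposited RPKM was not used.

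Exon counts were tested with edgeR 4.0.16 (R 4.3.3; quasi-likelihood F-test, robust, TMM, filterByExpr with a minimum count of 10), each comparison on its own 6 libraries and the interaction on 12, with Benjamini-Hochberg adjustment over all genes tested. Genes were called at 1.5-fold or more in either direction with an adjusted p no larger than 0.01. Intron counts were fitted separately. SE is the log2 fold change over the root of F. The procedure was tested on simulated data in which far fewer genes changed than passed on stimulation here, as many up as down. That run therefore does not test the choice of scale in the stimulation comparisons. Replicates are called biological in the labels, which do not name animals, and the paper describes its points as individual mice. The p-values measure the spread between these libraries. Depth, 10665174 to 19005482 exon reads, limits low counts.

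The genes, lists and comparisons were chosen with earlier results of these data known. Apart from Gsn, Tet2 and Tet3, genes named as changed were taken from the up to 4 of each list called in both genotypes with the largest changes. Some of these, among them Dnmt3a, Jak3 and Igfbp4, were left out. Alternatives were upper-quartile normalization, DESeq2 1.42.0, limma 3.58.1 on logged TPM (pseudocounts 1 and 0.1), other filters, uniquely placed reads, a replicate block, 1 fit of all libraries, an adjusted p of 0.05, and leaving out each library.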

Additional observations from a re-analysis of the deposited data

How the results depend on the processing

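The calls of Il2ra and Lrrc32 on stimulation, for exon reads, held in both genotypes under every alternative and with each library left out. So did those of Izumo1r in CD18wt and of Ctla4, Ikzf2 and Nrp1 in CD18Foxp3. The calls of Capg in CD18wt and Izumo1r in CD18Foxp3 held under 8 of 10 alternatives. The counts of the genotype comparisons rest on the filter and the tool. Over all genes, 16 passed between unstimulated genotypes, against 86 with DESeq2, 134 without a filter, 1 and 5 with limma on log2(TPM + 1) and log2(TPM + 0.1), 41 with a replicate block, 0 in 1 fit of all 12 libraries, 33 at an adjusted p of 0.05, and 0 to 44 with 1 library left out, 44 being without CD18wt unstimulated replicate 3. Between stimulated genotypes 0 passed, against 22 with DESeq2, 61 without a filter, 1 with limma on log2(TPM + 0.1), 1 with a replicate block and 0 to 2 with 1 library left out. Of the 10 genes, 1 (Ctla4) passed there without a filter. In the interaction 0 passed, against 1 with DESeq2, 31 without a filter and 1 with either limma fit. For intron reads in CD18wt 740 passed, against 1119 without a filter, 188 with a replicate block and 159 (without CD18wt stimulated replicate 3) to 1060 with 1 library left out. Of the 10 genes 4 passed there, 1 with the block and 2 to 5 with 1 library left out. The causes of these shifts were not tested.

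Signs turned in the following cases, none of them called. On stimulation in CD18wt, Ikzf4 had −0.065 with upper-quartile normalization and −0.013 with DESeq2, and Gpr83 0.17 with limma. In CD18Foxp3 Gpr83 had 0.26 and 0.27 with limma. The other values are ranges with 1 library left out. On stimulation, Ikzf4 ran from −0.092 to 0.12 in CD18wt, its introns from −0.43 to 0.45 and Gpr83 in CD18Foxp3 from −0.24 to 0.074. Between unstimulated genotypes, Ctla4 ran from −0.49 to 0.067, Foxp3 from −0.013 to 0.21 and Lrrc32 from −0.028 to 0.30, all 3 from the value without CD18wt replicate 3 to that without CD18wt replicate 2. Between stimulated genotypes, Nrp1 ran from −0.41 to 0.066, Gpr83 from −0.22 to 0.085, Izumo1r from −0.15 to 0.19 and Capg from −0.19 to 0.32. In the interaction, Lrrc32 ran from −0.17 to 0.15, Gpr83 from −0.031 to 0.28 and Capg from −0.47 to 0.036.

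The replicate numbers gave no pairing in all groups: deviations of same-numbered libraries across the cultures correlated at 0.135, 0.0696 and 0.147 in CD18Foxp3 and at 0.0958, −0.0195 and −0.0945 in CD18wt. In CD18Foxp3 every stimulated library correlated best with its own number. In CD18wt only stimulated replicate 1 did so. There stimulated replicate 2 correlated best with unstimulated replicate 3 (0.11), and stimulated replicate 3 with unstimulated replicate 2 (0.0985). These are hints from the data. The paper describes the stimulated cultures as parallel assays without stating which libraries shared a mouse, and the main tests treated the cultures as unpaired. With the replicate block 3588 genes passed on stimulation in CD18wt and 4899 in CD18Foxp3, beside 4013 and 4636.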
